A study of Mus musculus with 6 samples.

Results

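Vascular endothelial and mural cell genes were followed in RNA-seq of whole mouse retinas after crush of the optic nerve. The 33 genes were chosen by symbol, as genes that mark the cells of the vessel wall, and all 33 were found among the 35485 genes of each sample. They comprise 13 endothelial surface and receptor genes, 4 endothelial transcription factors, 6 genes of the blood-retinal barrier, 7 mural genes (pericytes and smooth muscle) and 3 genes for ligands and vessel matrix. In the ONC group the optic nerve of wild type C57BL/6 mice was crushed with forceps for 10 seconds at 2 mm behind the globe, and in the sham group the nerve was exposed and left uncrushed. Mice were 12 weeks old and retinas were taken 2 days after surgery. Each group had 3 samples, each made of equal amounts of RNA from 6 retinas of 6 mice, so a p-value measures the spread between pools and the spread between single mice was not measured.

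The inner retina is fed by its own vessels, whose endothelial cells are sealed to one another by tight junctions and carry transporters that select what enters the tissue. Pericytes cover the capillaries and smooth muscle cells the arterioles, and together they are called mural cells. Endothelial cells receive VEGF through Flt1 and Kdr and angiopoietins through Tek, while pericytes are recruited by PDGF-B through Pdgfrb. The VEGF-A of the retina comes largely from glia, the pigment epithelium and neurons, and Slc2a1, the glucose transporter GLUT1, is also made by retinal cells outside the vessels, so that these transcripts are not vascular in origin only.

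Erg and Fli1, both among the 33 genes, belong to the ETS family of transcription factors, which bind DNA around the core GGAA and control many endothelial genes. For this reason the 300 bases around the transcription start of 3 endothelial receptor genes and of Cldn5, the main claudin of endothelial tight junctions, are shown from RefSeq (GRCm38.p6), 5′ to 3′ on the strand of the gene, with GGAA and its complement TTCC in capitals. The windows are chr5:75978406-75978705 (minus strand) for Kdr, chr5:147725962-147726261 (minus strand) for Flt1, chr4:118489800-118490099 (minus strand) for Tie1 and chr16:18776597-18776896 (plus strand) for Cldn5.
Kdr: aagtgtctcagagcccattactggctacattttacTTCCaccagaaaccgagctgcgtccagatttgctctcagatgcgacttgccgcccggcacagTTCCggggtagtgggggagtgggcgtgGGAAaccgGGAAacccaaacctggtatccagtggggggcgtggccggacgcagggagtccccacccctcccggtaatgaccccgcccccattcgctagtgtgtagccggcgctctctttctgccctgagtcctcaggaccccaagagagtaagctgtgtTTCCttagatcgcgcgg
Flt1: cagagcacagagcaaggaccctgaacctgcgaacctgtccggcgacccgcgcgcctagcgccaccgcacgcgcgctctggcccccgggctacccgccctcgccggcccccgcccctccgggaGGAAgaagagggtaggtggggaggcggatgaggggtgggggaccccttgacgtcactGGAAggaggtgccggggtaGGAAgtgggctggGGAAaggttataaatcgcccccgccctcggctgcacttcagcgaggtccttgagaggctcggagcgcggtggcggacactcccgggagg
Tie1: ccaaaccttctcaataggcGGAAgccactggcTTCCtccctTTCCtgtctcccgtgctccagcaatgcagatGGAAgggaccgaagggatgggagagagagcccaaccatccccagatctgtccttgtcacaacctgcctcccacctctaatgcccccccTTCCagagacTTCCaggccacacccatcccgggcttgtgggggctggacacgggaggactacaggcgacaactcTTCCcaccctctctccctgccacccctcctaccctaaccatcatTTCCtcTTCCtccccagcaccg
Cldn5: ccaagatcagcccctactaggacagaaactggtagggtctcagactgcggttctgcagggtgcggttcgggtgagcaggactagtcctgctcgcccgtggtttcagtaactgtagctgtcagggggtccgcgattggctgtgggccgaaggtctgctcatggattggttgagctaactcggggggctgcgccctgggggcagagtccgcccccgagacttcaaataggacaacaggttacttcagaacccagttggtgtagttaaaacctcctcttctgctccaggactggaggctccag
The core occurred 9 times in the window of Tie1, 5 times in that of Kdr, 4 times in that of Flt1 and 0 times in that of Cldn5, counting both strands and each overlapping copy. So short a core is common, as 96% of the 32851 promoters in the same RefSeq table held at least 1 copy, with a median of 3, and 28.6% held 5 or more. A promoter was listed for 21 of the 33 genes. All 8 endothelial surface and receptor genes with a listed promoter had at least 1 core, and among barrier and mural genes Slc2a1, Cldn5 and Notch3 had none. None of these windows, that of Acta2 included, gave a match of letters to the CArG box, the serum response factor motif of smooth muscle genes. Such a match was present in 1.63% of all promoters. A box that departs from the searched letters would be missed, and Tagln and Myh11 had no listed promoter. GATA was present in 57.9% of all promoters, and in those of Kdr, Tek and Rgs5 among others. The hypoxia core ACGTG was present in 19.6% of all promoters and in those of Slc2a1, Mfsd2a, Notch3 and Vegfa. These are matches of letters in a fixed window, and binding was not measured.

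The level of each gene was taken from RPKM, exon reads corrected for exon length and for the reads on genes in each sample. Slc2a1 (chromosome 4, 119108745 to 119137330 in the files) was the most abundant, at 56.8 ± 4.8 RPKM in sham and 58.0 ± 1.5 in ONC (SD, n = 3 per group here and below). Vegfa (chromosome 17, 46016993 to 46032377) followed at 22.6 ± 0.91 in sham and 23.2 ± 1.0 in ONC. Kdr (chromosome 5, 75933265 to 75978428), the main signaling receptor for VEGF-A, reached 19.9 ± 0.37 in sham and 20.8 ± 4.1 in ONC. These 3 genes were the only ones above 10 RPKM on average, 13 lay between 1 and 10, and 17 were at or below 1.

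Among the genes listed as endothelial the levels differed widely. Reads of whole retina do not tell which cells made a transcript. These levels, that of Kdr included, need not come from vessel cells alone. Kdr and Flt1, a VEGF receptor that also acts as a decoy, stood above the junction and adhesion genes: Flt1 was at 8.90 ± 1.5 RPKM in sham, against 1.56 ± 0.44 for Pecam1 and 0.934 ± 0.53 for Cdh5, which encodes VE-cadherin. In each of the 6 samples Kdr was 1.94 to 2.58 times Flt1 per length. Esam, an endothelial adhesion molecule, was at 4.45 ± 0.18 and Ly6c1, a surface antigen, at 4.05 ± 0.81 in sham. Among the barrier genes Cldn5 was at 5.22 ± 0.48 in sham, with 10.7 to 14.1 times more Slc2a1 per length in the single samples. Among the mural genes Rgs5, a regulator of G protein signaling in pericytes, was at 8.76 ± 1.4 in sham, above Pdgfrb at 1.86 ± 0.25 and the contractile genes Tagln at 1.34 ± 0.31 and Acta2 at 0.820 ± 0.15. The myosin heavy chain gene of smooth muscle, Myh11, was at 0.184 ± 0.058 and Cspg4, which encodes the pericyte proteoglycan NG2, at 0.058 ± 0.049.

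**Figure D1:**
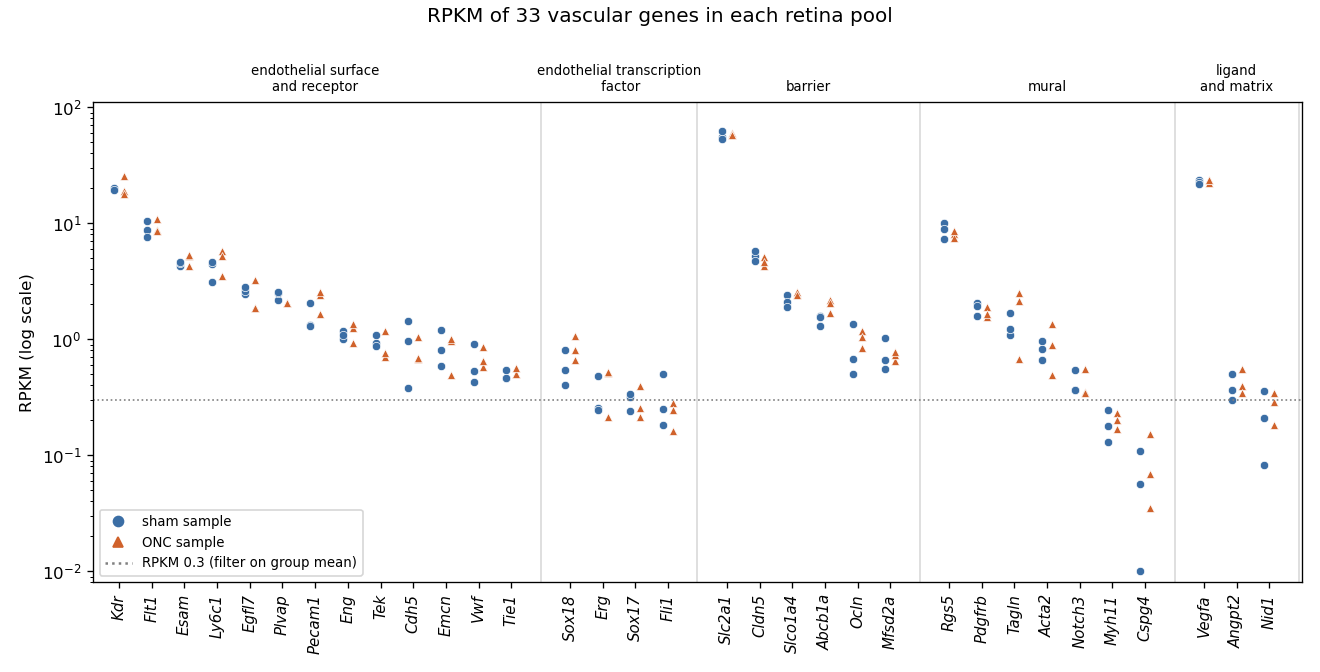
RPKM (log axis) of the 33 genes in each sample, ordered by level within 5 groups of genes, with a circle for each sham sample and a triangle for each ONC sample. Slc2a1, Vegfa and Kdr lie above 10 RPKM and Cspg4 lies lowest, and for most genes the circles and triangles cover the same range.

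Exon reads per sample were 17343945 to 18349331 in sham and 20019818 to 20358008 in ONC. The exon share of reads on genes was 70.9% to 76.6% in sham and 78.5% to 80.4% in ONC. The divisor of RPKM also counts intron reads. The median log2 fold change of all genes was 0.13 in the scaling of RPKM and 0.01 after TMM normalization of exon reads. TMM brings the typical fold change near 0 by design, so these medians do not show which scale is right. Groups were compared on exon reads because the deposited data hold counts. Values are given below as scaled CPM (exon reads relative to the TMM-normalized library size). The test was edgeR's quasi-likelihood test over the 13670 genes whose mean RPKM exceeded 0.3 in ONC or sham. The crush itself was visible in the retinal ganglion cell markers, of which 6 of 6 were called lower in ONC, beside 3.72% of all genes. Log2 fold changes of the 6 markers ran from -1.39 to -0.22. All but Thy1 had been reported as lower by the authors from these data, so the count is not independent of that report. Thy1 had an adjusted p of 0.0517 and was not significant in the authors' test. Its groups overlapped in RPKM, at 88.3 to 93.2 in sham and 80.7 to 89.2 in ONC. Pou4f3, a marker outside that list that was added after the data were seen, had -0.08 ± 0.43 and was not called (adjusted p = 0.951).

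No vascular or mural gene passed the test. Of the 33 genes 29 were tested, 0 were called at an adjusted p under 0.1 and 0 had an unadjusted p under 0.05, and the DESeq2 Wald test also gave 0 for each. Over all genes 833 of 13670 were called (6.09%), 325 of them higher in ONC (2.38%) and 508 lower (3.72%); in the scaling of RPKM these were 1507 and 223, with 0 of the 29 called. Over all genes 16.7% had an unadjusted p under 0.05. DEGs, with a fold change above 1.5 as well, were 1.66% of all genes and 0 of the 29. Scaled CPM of the 2 groups did not overlap for 3 of the 29 genes, Plvap, Cldn5 and Vegfa, each lower in ONC, compared with 21.8% of all genes tested. The smallest adjusted p of the 29 was 0.349, for Rgs5. Sox17, Cspg4, Myh11 and Nid1 did not reach the level for testing in either group, and none of them was called when that filter was left out. In whole retina, fewer vessel cells and less RNA per vessel cell cannot be told apart.

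The 29 estimates lay on both sides of 0, with 12 positive and 17 negative and a median log2 fold change of -0.04, beside 0.01 for all genes, of which 52.3% were positive. In the scaling of RPKM the majority turned, with 18 positive and 11 negative, beside 76.7% positive over all genes. The median was -0.04 for the 13 endothelial surface and receptor genes, 0.00 for the 6 barrier genes and -0.14 for the 5 mural genes. Each list had members on both sides of 0. How small a change could have been missed depended on the level of the gene and on its spread between samples. The 95% interval lay within a 1.5-fold change in either direction for 11 genes (Kdr, Flt1, Esam, Eng, Ly6c1, Vwf, Slco1a4, Slc2a1, Pdgfrb, Rgs5 and Vegfa) and within a 2-fold change for 23. The standard error of log2 fold change had a median of 0.15 in the 15 genes with 100 or more exon reads per sample on average and 0.37 in the 14 below that. For Cdh5, Emcn, Tagln and the 3 transcription factors tested the 95% interval still held a 2-fold difference.

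**Figure D2:**
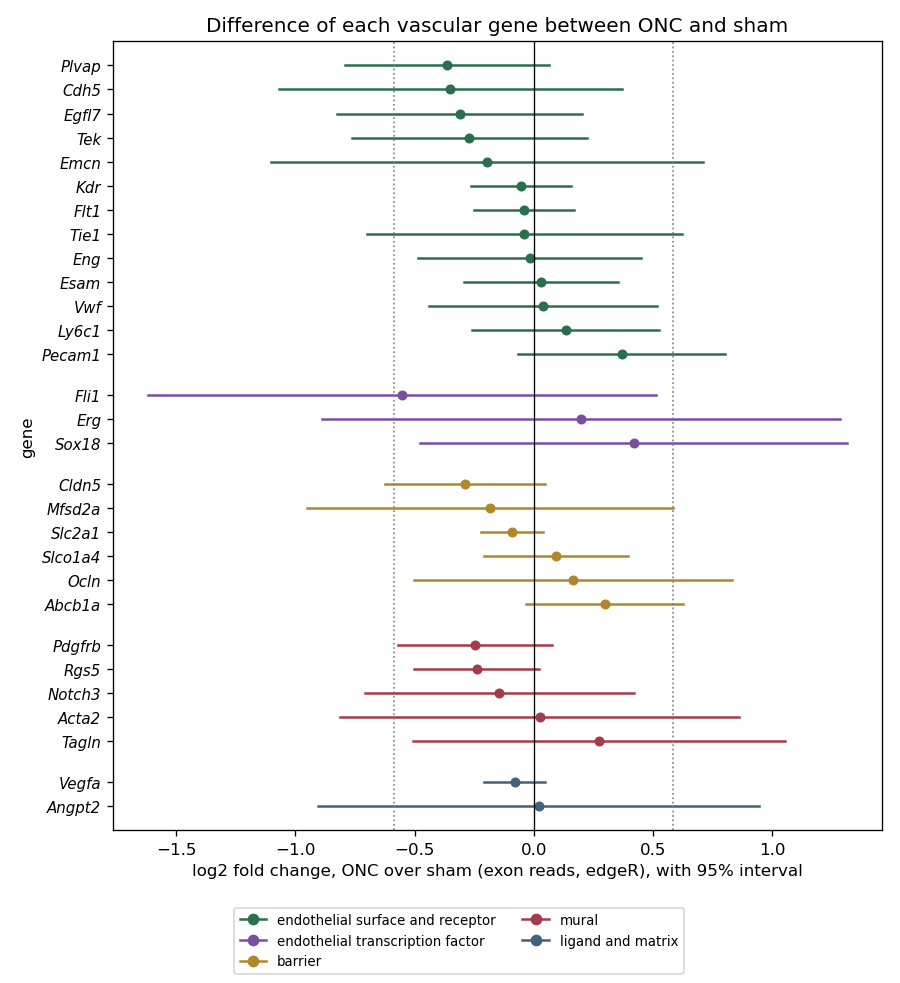
Log2 fold change of ONC over sham for the 29 genes tested, with 95% intervals from edgeR, grouped and coloured by list. Dotted lines mark a 1.5-fold change, every interval includes 0, and the intervals of Kdr, Flt1, Slc2a1 and Vegfa are the narrowest of their lists.

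Among the receptors, Kdr was at 143, 145 and 153 scaled CPM in the sham samples and at 177, 126 and 121 in ONC samples 1, 2 and 3. ONC sample 1 was above every sham sample and the other ONC samples were below them. The log2 fold change of Kdr was -0.05 ± 0.10 (SE) with an adjusted p of 0.833. Without ONC sample 1 it was -0.25 with an adjusted p of 0.00613, the 1 call among these genes in any alternative, and in that fit 2031 of all genes were called. Flt1 was at 72.0, 86.3 and 68.4 in sham and at 86.9, 66.7 and 66.9 in ONC, again with the first ONC sample highest, and its log2 fold change was -0.04 ± 0.10. The variance of Kdr reads within groups was 70.2 times that of counting error alone, and that of Flt1 reads 29.0 times.

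Of the Tie receptors, Tek receives angiopoietins and Tie1 modulates the response. Tek was at 5.73, 5.33 and 7.30 scaled CPM in sham and 4.14, 6.64 and 4.43 in ONC, and its log2 fold change was -0.27 ± 0.24. ONC samples 1 and 3 lay below the sham samples and sample 2 lay among them. Tie1 had 41 to 52 exon reads in sham and 48 to 57 in ONC and a log2 fold change of -0.04 ± 0.32.

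The adhesion and junction genes did not share a direction. Pecam1 (chromosome 11, 106654218 to 106715281), the platelet endothelial adhesion molecule, was at 5.73, 9.02 and 6.18 scaled CPM in sham and 7.02, 9.62 and 10.4 in ONC. Cdh5 was at 2.00, 7.59 and 5.59 in sham and 3.43, 5.08 and 3.42 in ONC. Both sets overlap between groups, and the sham samples of Cdh5 spread more widely than the ONC samples. The log2 fold change was 0.37 ± 0.21 for Pecam1 (adjusted p = 0.39) and -0.35 ± 0.34 for Cdh5 (adjusted p = 0.659). The estimate for Cdh5 was 0.07 without sham sample 2, its highest sample, and -0.73 without sham sample 1, its lowest.

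Plvap, which forms the diaphragms of fenestrated endothelium and is scarce in barrier vessels, was at 5.78, 6.71 and 7.36 scaled CPM in sham and 5.25, 4.98 and 5.20 in ONC. All ONC samples lay below all sham samples, with a log2 fold change of -0.36 ± 0.20 and an adjusted p of 0.39. Egfl7, a secreted endothelial factor, gave -0.31 ± 0.25 and Emcn, the sialomucin endomucin, gave -0.20 ± 0.43. Esam, Ly6c1, Vwf (von Willebrand factor) and Eng (endoglin, a TGF-beta co-receptor) lay between -0.02 and 0.13. Of the reads of Ly6c1 96.5% were uniquely mapped, and the rest could belong to related Ly6 genes.

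The endothelial transcription factors were near the lower limit of what could be measured, with 12 to 43 exon reads per sample over all 4. Erg had 13, 13 and 26 reads in sham and 12, 28 and 30 in ONC. Fli1 had 13, 37 and 19 reads in sham and 22, 19 and 13 in ONC. Both ranged more than 2-fold within 1 group, and their log2 fold changes were 0.20 ± 0.52 and -0.55 ± 0.51. Fli1 reached the level for testing through the sham group only, at 0.311 RPKM on average against 0.230 in ONC. Sox18, which acts early in endothelial differentiation, had 0.42 ± 0.43, and Sox17, an arterial factor, had 18 to 26 reads in sham and 17 to 32 in ONC. The intervals of Erg and Fli1 were the widest of the 29 genes, and no order among these factors could be drawn.

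Of the barrier genes, Cldn5 (chromosome 16, 18776847 to 18778262) was at 9.68, 10.7 and 9.72 scaled CPM in sham and 7.67, 8.74 and 8.18 in ONC. The groups did not overlap on this scale, whereas in RPKM they did. The log2 fold change was -0.29 ± 0.16 (95% interval -0.63 to 0.05, adjusted p = 0.381). Abcb1a, the drug efflux pump P-glycoprotein, had an estimate of similar size in the other direction, 0.30 ± 0.16 (adjusted p = 0.356), from 10.5, 10.1 and 9.25 in sham and 13.9, 10.1 and 12.7 in ONC. Here ONC samples 1 and 3 were above the sham samples and ONC sample 2 was among them. Of its reads 97.7% were uniquely mapped.

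The transporters Slc2a1 and Slco1a4 were measured with more precision. Slc2a1 was at 189, 210 and 196 scaled CPM in sham and 196, 179 and 184 in ONC. Its log2 fold change was -0.09 ± 0.06, with a 95% interval from -0.22 to 0.04. Slco1a4, an organic anion transporter of barrier endothelium, was at 12.1, 10.6 and 10.5 in sham and 11.9, 12.0 and 11.6 in ONC, with 0.09 ± 0.14. Both therefore overlapped between groups. Ocln, a tight junction protein that epithelia also carry, was uneven in sham at 5.73, 2.86 and 2.30, and its log2 fold change of 0.16 ± 0.32 became 0.65 without sham sample 1. Mfsd2a, a lipid transporter that keeps transcytosis low in barrier endothelium, had 29 to 53 reads in sham and 35 to 43 in ONC and -0.18 ± 0.37.

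The mural genes divided into pericyte and contractile genes without a difference that passed the test. Rgs5 (chromosome 1, 169655501 to 169693526) was at 24.1, 21.2 and 19.0 scaled CPM in sham and 18.6, 16.5 and 19.3 in ONC. Pdgfrb was at 11.3, 14.7 and 15.1 in sham and 13.1, 10.3 and 11.2 in ONC. In both pairs the groups overlapped, with log2 fold changes of -0.24 ± 0.13 (adjusted p = 0.349) and -0.25 ± 0.15 (adjusted p = 0.445). Notch3, the Notch receptor of arterial smooth muscle and pericytes, had -0.14 ± 0.27.

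The contractile genes were uneven among the ONC samples. Tagln, the smooth muscle protein SM22, was at 2.29, 3.52 and 2.83 scaled CPM in sham and 1.36, 4.83 and 4.23 in ONC. Acta2, smooth muscle alpha actin, was at 1.95, 2.25 and 1.71 in sham and 1.11, 2.93 and 1.97 in ONC. Both were lowest of all 6 samples in ONC sample 1 and highest in ONC sample 2, with log2 fold changes of 0.27 ± 0.37 and 0.03 ± 0.40. Myh11 had 21 to 39 exon reads in sham and 29 to 39 in ONC. Cspg4 had 20, 2 and 11 reads in sham and 14, 7 and 32 in ONC, and its samples spread more within each group than its group means were apart.

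Vegfa, the ligand, was at 129, 124 and 130 scaled CPM in sham and 118, 121 and 124 in ONC. The groups did not overlap on this scale by a narrow margin, and the log2 fold change was -0.08 ± 0.06 (95% interval -0.21 to 0.05, adjusted p = 0.541). In the scaling of RPKM the sign was positive, at 0.04, and the same turn was seen for Kdr, Flt1, Tie1, Eng and Slc2a1. Angpt2, an antagonist of Tek released by activated endothelium, had 17 to 30 exon reads in sham and 22 to 34 in ONC, of which 72% were uniquely mapped, and a log2 fold change of 0.02 ± 0.44. Nid1, a basement membrane linker, had 50, 12 and 31 reads in sham and 28, 43 and 54 in ONC.

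As a set, the genes of 1 cell type showed no common pattern between samples. Of the 13 endothelial surface and receptor genes, 6 (Pecam1, Tek, Emcn, Eng, Ly6c1 and Vwf) were lowest of the ONC samples in sample 1, while 4 (Kdr, Flt1, Esam and Plvap) were highest there. ONC sample 1 also held the highest ONC value for 5403 and the lowest for 5171 of all 13670 genes, more than either other ONC sample. Over the 6 samples, deviations from the group means had a median Pearson r of 0.07 among the 78 pairs of endothelial surface and receptor genes, 0.02 among all 406 pairs of the 29 genes and -0.08 among the 10 mural pairs. Single pairs ranged from -0.95 to 0.95 among the endothelial surface and receptor genes and from -0.59 to 0.91 among the mural genes. Counting error in genes with few reads weakens such values, so shared variation could have been missed. Such values over 6 pools share libraries and depth and are given as a description. Summed over the 33 genes, scaled CPM was 687, 735 and 702 in sham and 724, 650 and 657 in ONC, and the sum is mostly Slc2a1, Kdr, Vegfa and Flt1. The sum of the 7 mural genes was 44.6 to 49.6 in sham and 39.8 to 45.2 in ONC.

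**Figure D3:**
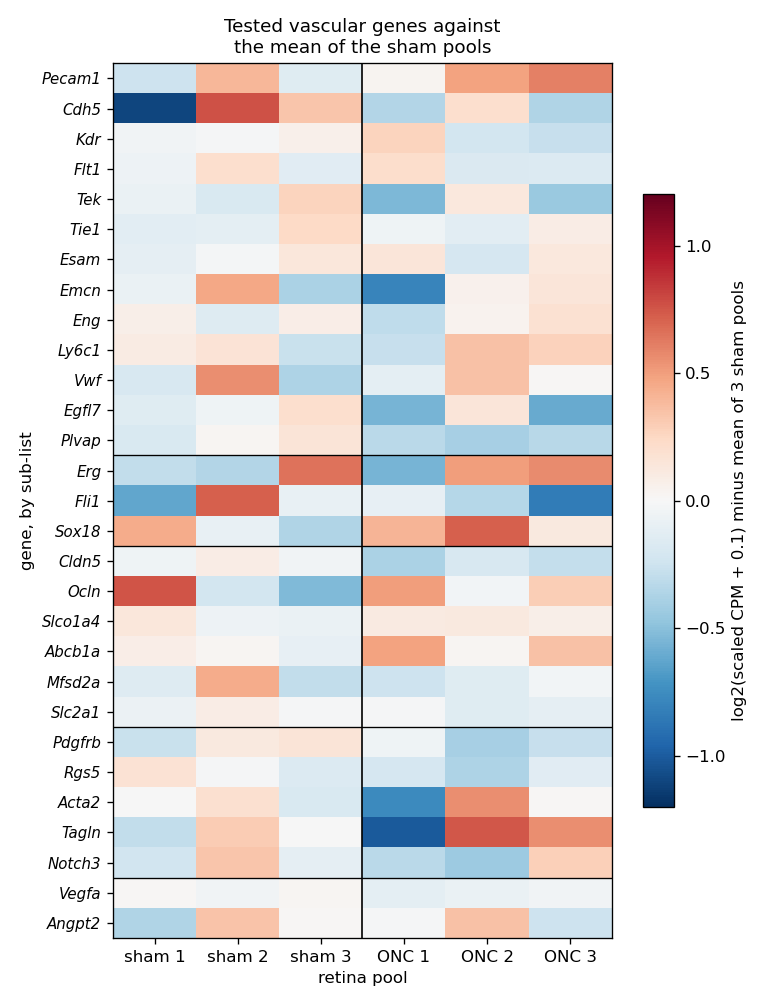
Log2(scaled CPM + 0.1) of the 29 genes tested, each relative to the mean of the 3 sham samples, with genes in rows by list and samples in columns; red is above and blue below that mean. Red and blue alternate within each list, as for Tagln and Emcn, which are lowest in ONC sample 1, and for Kdr and Flt1, which are highest of the ONC samples there.

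Markers of blood and of other tissue moved between samples, and their part in these values was not tested. Of the 4 blood genes tested all 4 were lower in ONC at an unadjusted p under 0.05, which 16.7% of all genes reached in either direction. The 2 called were both alpha globins, beside 3.72% of all genes called lower. Hba-a1 and Hba-a2 together were at 164, 80.7 and 78.1 scaled CPM in sham and 49.0, 58.7 and 44.3 in ONC, with log2 fold changes of -0.99 and -1.24. Of their reads 28.7% and 29.5% were uniquely mapped, so the 2 genes cannot be separated. Hbb-b1 had -0.64 (adjusted p = 0.107). Alas2, the heme synthesis enzyme of red cells, was at 4.01, 3.41 and 2.71 in sham and 2.47, 1.71 and 1.44 in ONC, without overlap (-0.85, adjusted p = 0.195), and Slc4a1 had 0 to 9 reads per sample. The summed level of the blood list was 97.8 to 197 in sham and 56.1 to 78.9 in ONC. The 9 genes of pigment epithelium and choroid melanocytes, tissue that borders the retina and has fenestrated vessels of its own, summed to 74.9 to 104 in sham and 57.2 to 83.1 in ONC. Of these 0 of 9 were called and 1 of 9 had an unadjusted p under 0.05, beside 6.09% and 16.7% of all genes. Of the connective tissue markers Dpt averaged 0.167 and Dcn 9.17 exon reads per sample, and the list summed to 16.3 to 22.1 in sham and 21.1 to 24.0 in ONC, most of it Pdgfra, with 0 of 2 tested genes called.

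Markers of other retinal cells included calls. Of 7 microglia and macrophage genes tested, 2 rose (Itgam 1.70-fold and Cd68 2.82-fold), beside 2.38% of all genes. The list summed to 24.1 to 30.6 in sham and 34.8 to 43.5 in ONC. The log2 fold change was positive for 6 of the 7 and negative for Aif1 (-0.32 ± 0.64). ONC sample 1 lay inside the sham range for Cd68 (1.21 against 0.589 to 1.49), and with the replicate number as a block Cd68 was not called (adjusted p = 0.163). Of 7 Müller glia and astrocyte genes 0 were called, with 3 at an unadjusted p under 0.05, beside 16.7% of all genes. These had log2 fold changes of 0.36 (Gfap), 0.18 (Vim) and -0.13 (Glul), so they did not share a direction. Of 6 photoreceptor and bipolar genes 1 rose, beside 2.38% of all genes. It was Pde6b, with a log2 fold change of 0.18, and with that block it was not called (adjusted p = 0.166).

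Reads on introns, the gene reads minus the exon reads, give a second readout that leans toward unspliced RNA. They allowed a test of 13 of the 33 genes. None was called (0 of 13, and 0 at an unadjusted p under 0.05) by edgeR, beside 2.7% of the 13391 genes tested, and DESeq2 also gave 0 of each. Flt1 had 414, 538 and 506 intron reads in sham and 366, 528 and 507 in ONC, with a log2 fold change of -0.03 ± 0.16. Kdr had 103, 80 and 108 in sham and 108, 119 and 65 in ONC, with 0.07 ± 0.30. The high exon value of Kdr in ONC sample 1 thus stood beside an intron count that was not the highest of its group. Slc2a1 had -0.39 ± 0.26 and Vegfa 0.17 ± 0.19, neither past the test.

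The wider vascular pathways were read from 93 further genes in 11 lists, of which 78 were tested and 6 were called, 4 higher and 2 lower in ONC. That is 7.69%, near the 6.09% of all genes, and 9 genes had an unadjusted p under 0.05, which is 11.5% against 16.7% of all genes. One of the 6, Pgf, was tested only because of its level in ONC, and without it 3 were higher and 2 lower. The median log2 fold change of the 78 tested genes was 0.03. Beside the VEGF receptors and Vegfa, 6 of 7 VEGF and neuropilin genes were tested, and the 1 called was Pgf. Pgf, placental growth factor, a ligand of Flt1, had 3, 3 and 1 exon reads in sham and 18, 17 and 14 in ONC. It reached the level for testing through the ONC group only, and it was not called when all genes were tested without that filter (adjusted p = 0.134). Per scaled library the 49 reads of ONC were 6.03 times the 7 of sham. The exact 95% interval of 2.72 to 15.8 covers counting error only and does not allow for entry to the test through ONC. With the filter edgeR gave an adjusted p of 0.0681. The call was lost without any 1 sample other than ONC sample 1 (adjusted p up to 0.24). Vegfb, at 21.3 ± 2.4 RPKM in sham, and the co-receptor Nrp2, at 2.17 ± 0.37, had -0.18 ± 0.10 and -0.33 ± 0.13 and were not called.

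The angiopoietin and PDGF lists held no call. In the first, Ptprb, the endothelial phosphatase that opposes Tek, was the 1 gene of 4 tested, at -0.23 ± 0.13, and Angptl4 stayed at 0.278 RPKM in sham and 0.269 in ONC. In the second, Pdgfd had 0.32 ± 0.24 and Pdgfra, a receptor of astrocytes and fibroblasts, 0.12 ± 0.14, with 0 of 5 called. For Notch 0 of 8 tested genes were called, with the ligand Jag1 at 0.11 ± 0.06 and the target Hes1 at -0.18 ± 0.17. For norrin and Wnt signaling, which builds the barrier, 0 of 6 were called, with the ligand Ndp at -0.19 ± 0.19 and the co-activator Gpr124 at -0.14 ± 0.10. For hypoxia 0 of 6 were called, and Hif1a, at 135 ± 6.2 RPKM in sham, and Epas1, the endothelial HIF subunit, had 0.03 ± 0.05 and -0.05 ± 0.06.

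One gene of 8 in the TGF-beta and BMP list fell. Bmpr2, the type II receptor for BMPs, was at 52.3, 58.9 and 60.9 scaled CPM in sham and 50.5, 31.4 and 43.3 in ONC. All ONC samples lay below the sham samples, sample 1 by little, with a log2 fold change of -0.46 ± 0.12 and an adjusted p of 0.04. Leaving out ONC sample 2 gave -0.29 and 0.163, and leaving out sham sample 2 or 3 gave 0.199 and 0.193. It was not called by limma on log2 RPKM either (-0.36 and -0.33, adjusted p of 0.145 and 0.142 at pseudocounts of 0.1 and 1). Its intron reads were also lower, 137, 184 and 328 in sham and 103, 82 and 107 in ONC before scaling (log2 fold change -1.09 ± 0.27, adjusted p = 0.0784). Tgfbr1 had fewer intron reads too (-0.82 ± 0.19, adjusted p = 0.0677), beside -0.01 ± 0.08 on exons. These were the 2 calls among the 56 pathway genes tested on introns, beside 2.7% of all genes tested there. Without sham sample 2, ONC sample 2 or ONC sample 3 neither gene was called on introns, but those fits called 0, 0 and 1 of all 13391 genes. Without sham sample 3, where 88 genes were called, Bmpr2 was not. The main intron fit called 361 genes, so these losses were not particular to Bmpr2 and Tgfbr1. Tgfb2, a ligand, had -0.11 ± 0.08 on exons.

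Of the adhesion and vessel tone genes, 1 of 10 tested rose. Mcam, the adhesion molecule CD146 of endothelium and pericytes, was at 4.98, 5.33 and 6.01 scaled CPM in sham and 11.9, 6.88 and 7.94 in ONC. Every ONC sample was above the sham samples, sample 1 by the most, and the log2 fold change was 0.71 ± 0.22 (adjusted p = 0.0752). It was 0.45 with an adjusted p of 0.218 without ONC sample 1, and the call was also lost without any of the sham samples or ONC sample 3 (adjusted p from 0.129 to 0.238). Cav1, which shapes caveolae, had 0.06 ± 0.07 and S1pr1, a receptor that stabilizes vessels, 0.04 ± 0.11.

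Among 12 further junction and transport genes 1 rose and 1 fell. Slc7a5, the large neutral amino acid transporter LAT1 of the barrier and of many growing or stressed cells, was at 40.4, 40.6 and 35.9 scaled CPM in sham and 69.9, 58.8 and 65.2 in ONC. The groups were far apart, with a log2 fold change of 0.73 ± 0.09 and an adjusted p of 2.23e-05, and the call held in all 15 alternatives on exon reads. The authors had listed Slc7a5, as a target of the transcription factor ATF4, among their changed genes from these data. The call is therefore not independent of that report. Tfrc, the transferrin receptor, which carries iron across the barrier and into most cells, was at 229, 242 and 224 in sham and 186, 209 and 201 in ONC. Its log2 fold change was -0.22 ± 0.06 (adjusted p = 0.048). The call was lost in the scaling of RPKM (-0.10, adjusted p = 0.424), by limma on log2 RPKM (-0.10 at both pseudocounts, adjusted p of 0.496 and 0.494) and without sham sample 2 or 3 or ONC sample 3 (adjusted p of 0.261, 0.111 and 0.123). On introns the estimate for Tfrc went the other way, 0.52 ± 0.20 (adjusted p = 0.2), and that for Slc7a5 was 0.51 ± 0.57 (adjusted p = 0.685). Neither was called there. Slc16a1, the lactate transporter MCT1, had 0.05 ± 0.05 on exons.

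Of 6 basement membrane genes tested 1 rose. Sparc, a matrix glycoprotein made by endothelium and also by glia, was at 168, 156 and 142 scaled CPM in sham and 207, 187 and 194 in ONC, without overlap. The log2 fold change was 0.33 ± 0.07 (adjusted p = 0.00608), below 1.5-fold, and the call held in all 15 alternatives. The collagens of the vessel basement membrane, Col4a1 and Col4a2, had 0.19 ± 0.14 and 0.03 ± 0.12. Of 10 further mural genes 0 were called. The most abundant of these, Vtn, which in retina is mainly a photoreceptor transcript, was at 411 ± 6.0 RPKM in sham, and Mylk, the myosin light chain kinase, had -0.08 ± 0.07.

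**Figure D4:**
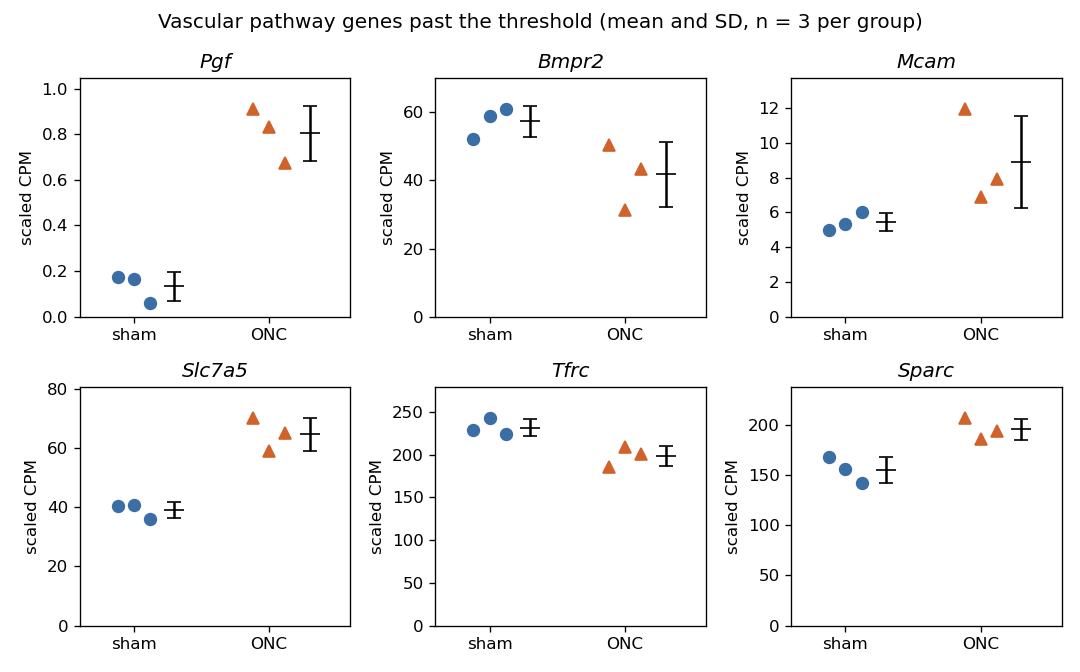
Scaled CPM of the 6 vascular pathway genes that passed the test, on linear axes from 0, with each sample as a point (circles sham, triangles ONC) and the mean with SD beside it (n = 3 per group). Slc7a5 and Pgf show the widest gaps between groups, and Mcam and Bmpr2 the widest spread among ONC samples. Pgf was tested only because of its level in ONC and was not called without the filter.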

How the data were processed

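RNA of whole retinas from 3 ONC and 3 sham samples was sequenced from libraries made with a TruSeq kit, which is not stated to keep strand. Mapping was done in CLC Genomics Workbench, and the authors deposited raw counts for each gene, split into exon reads and reads on the whole gene, both total and unique. The authors also deposited RPKM, computed from total exon reads and divided by all reads on genes. The submitters' processing notes name mm9, but 99.9% of the 29908 gene symbols matched to RefSeq overlap their GRCm38 position, so positions are given as in the files and no genome sequence was read by coordinates.

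Total exon reads were compared with edgeR 4.0.16 in R 4.3.3 (TMM, glmQLFit and glmQLFTest, condition as the only term) over the 13670 genes whose mean RPKM exceeded 0.3 in ONC or sham, with Benjamini-Hochberg adjustment over all of them. Genes were called at an adjusted p under 0.1, and DEGs also had a fold change above 1.5. The standard error is the size of the log2 fold change over the square root of F. Intron reads were tested in the same way after filterByExpr (13391 genes). Spread within groups was set against counting error as Pearson's chi-square per degree of freedom. The procedure was tested on simulated counts.

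The alternatives were DESeq2 1.42.0 size factors and its Wald test, the scaling of RPKM, limma 3.58.1 on log2 RPKM with pseudocounts of 0.1 and 1, no filter, a mean RPKM above 1, unique reads, the replicate number as a block, an adjusted p under 0.05 and leaving out each sample. The 33 genes and all other lists were chosen with earlier results of these data known. The genes named are the 33, every pathway gene called, and up to 2 others of highest mean RPKM per pathway list, of which 1 is not reported here. Promoters were to be searched for a list that moved together. None did as a whole, so all listed promoters were searched as a description, chosen after values were seen. Python 3.11.15 with pandas 2.3.3 and scipy 1.17.1 was used, and matplotlib 3.10.9 for figures.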

Additional observations from a re-analysis of the deposited data

How the results depend on the processing

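The number of the 33 genes called on exon reads was 0 under every alternative other than leaving out ONC sample 1, where it was 1, Kdr. Leaving out 1 sample gave 0 to 1. Calls among all genes, 833 as reported, were 1730 in the scaling of RPKM (1507 higher and 223 lower in ONC, against 325 and 508) and 371 to 2031 when 1 sample was left out, and calls among pathway genes, 6 as reported, were 2 to 9. Of the 29 genes tested, 12 kept the sign of the log2 fold change in all alternatives run on them, Pecam1, Tek, Ly6c1, Egfl7, Plvap, Fli1, Sox18, Cldn5, Slco1a4, Abcb1a, Pdgfrb and Rgs5. None of the 29, these 12 included, was called as reported. Of the 12, Fli1 was tested only because of its level in sham, where it is higher.

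In the scaling of RPKM the sign turned for Kdr (0.07), Flt1 (0.08), Tie1 (0.09), Eng (0.11), Slc2a1 (0.03) and Vegfa (0.04), where the median of all genes is 0.13. With limma at pseudocounts of 0.1 and 1, which use RPKM too, it turned for Kdr (0.05 and 0.05), Flt1 (0.08 and 0.07), Tie1 (0.07 and 0.03), Eng (0.09 and 0.05), Slc2a1 (0.03 and 0.03) and Vegfa (0.04 and 0.04).

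Leaving out 1 sample, log2 fold changes that changed sign ranged from -0.73 to 0.07 for Cdh5, -0.25 to 0.04 for Kdr, -0.18 to 0.07 for Flt1, -0.11 to 0.10 for Tie1, -0.03 to 0.13 for Esam, -0.38 to 0.09 for Emcn, -0.14 to 0.11 for Eng, -0.14 to 0.38 for Vwf, -0.01 to 0.64 for Erg, -0.08 to 0.65 for Ocln, -0.33 to 0.09 for Mfsd2a, -0.36 to 0.31 for Acta2, -0.04 to 0.65 for Tagln, -0.41 to 0.05 for Notch3 and -0.18 to 0.23 for Angpt2. The cause was not tested.

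ONC and sham samples share replicate numbers, but deviations of same-numbered samples from their group means correlated at -0.047, -0.033 and 0.003 over genes, so the numbers were not taken to pair the samples. With the replicate number as a block, 0 of the 29 genes and 728 of all genes were called, the sign of Acta2 turned (-0.04), and 5 of the 6 pathway genes were called, without Pgf (adjusted p = 0.107). Of the markers called, Cd68 (adjusted p = 0.163) and Pde6b (adjusted p = 0.166) were lost under the block.

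On introns the 33 genes gave 0 calls in every alternative run. Calls among all genes on introns were 361 as reported and 0, 0 and 1 without sham sample 2, ONC sample 2 and ONC sample 3. In those fits a call among the 33 genes was hardly possible. The other intron alternatives called 88 to 1108 genes. Depth limits the statements on the 14 tested genes with fewer than 100 exon reads per sample.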
